A study of Mus musculus with 12 samples.

Results

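Nqo1, Gclc, Gclm, Txnrd1, Txn1, Srxn1, Slc7a11, Prdx1, Mgst1 and Gstm1 are 10 mouse genes of quinone, glutathione and thioredoxin chemistry that are known as targets of the transcription factor NRF2. They were taken by name, each by the probe set with the highest mean, and 9 of the 10 were among the 22180 genes read by a probe set with 1 gene symbol. Prdx1, a peroxiredoxin that reduces peroxides, has no level here because its 3 probe sets each carried several symbols.

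The samples were primary mouse macrophages on 12 single-channel arrays, 3 in each of 4 groups. KO TAMs (tumour-associated macrophages) were Cd36 knockout cells that had shared a culture with the mouse multiple myeloma line 5TGM1 for 72 h. KO MΦs were Cd36 knockout macrophages without myeloma cells. WT TAMs and WT MΦs were wild-type macrophages with and without that co-culture. All were kept in RPMI medium with serum and antibiotics. The tissue the cells came from, the strain, age and sex of the mice, the way the knockout was made, the removal of the myeloma cells and the culture time of the MΦs are not given in the labels, so TAMs and MΦs may also differ in how long they were cultured. The labels name the comparison of normal macrophages with TAMs as the purpose, and the 2 genotypes add that of Cd36 knockout with wild type.

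Levels are log2 intensities of the deposited values, and the array medians lay between 31.31 and 33.3 intensity units. Cd36 read 8.45 to 9.66 on the KO arrays and 12.1 to 12.53 on the WT arrays, and fell by 3.41 on the log2 scale in KO TAMs against WT TAMs (limma adjusted p = 2.45e-05). The macrophage genes Adgre1, Cd68, Csf1r and Itgam read between 10.76 and 13.07 on every array. Xist read 3.91 to 4.35 on KO arrays and 11.08 to 11.32 on WT arrays, and the Y-linked Uty, Eif2s3y and Kdm5d read 7.97 to 9.99 on KO arrays and 3.05 to 4.1 on WT arrays, so genotype and this X and Y pattern cannot be told apart. The level of the Y-linked genes on WT arrays is used below as a guide to background. Of 12 measured markers of plasma and myeloma cells, Jchain and Tnfrsf17 were at background (3.28 to 4.09) on all 12 arrays. Fcrl5 read from 4.64 on WT TAM 1, near background, to 10.75 on KO MΦ 2. Slamf7 read 11.78 to 12.56. Both were far above background in the MΦs, which had no myeloma cells, and both are given below. WT TAM 2 and KO TAM 1 stood apart most: 1.87% and 2.48% of all genes lay more than 1 on the log2 scale from the mean of the other arrays of their group. Results that rest on these 2 arrays are given with and without them. KO TAM 3 followed with 1.37% and WT TAM 1 with 0.509%, so the line drawn after the first 2 arrays is not a sharp one. In bulk RNA, fewer cells of a type and less RNA per cell cannot be told apart.

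NRF2, encoded by Nfe2l2, is held by KEAP1 and marked for destruction by a CUL3 ubiquitin ligase until oxidants or electrophiles modify KEAP1. It then accumulates, pairs with small MAF proteins and binds antioxidant response elements near genes of detoxification, and BACH1 competes for the same elements. In macrophages these genes supply glutathione and reduced thioredoxin, which counter the oxidants the cells make themselves.

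The antioxidant response element has the core TGACNNNGC, which was searched on both strands of the 300 bases around each gene start (250 before, 50 after) in RefSeq of GRCm38.p6. Of the 10 genes, 9 had an entry, and 5 of those 9 genes (55.6%) held the core in at least 1 window, against 14.0% of all 27025 genes. They were Gclm, Srxn1, Txnrd1, Mgst1 and Prdx1, with a match in 5 of 13 windows (38.5%), against 12.4% of all 32851 windows. A second form, TGAGTCAGC, searched after the windows had been read, was in the Srxn1 window and in 0.414% of all windows. The 250 bases before the start of 4 measured genes are shown because they let the cores be compared, with the matched letters in capitals.
Gclm, chr3:122245307-122245556, + strand: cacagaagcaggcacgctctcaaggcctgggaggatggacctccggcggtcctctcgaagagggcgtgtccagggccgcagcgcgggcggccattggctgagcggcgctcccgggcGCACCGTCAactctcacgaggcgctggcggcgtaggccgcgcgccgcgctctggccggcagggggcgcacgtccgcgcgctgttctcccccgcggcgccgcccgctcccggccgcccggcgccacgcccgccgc
Srxn1, chr2:152105274-152105523, + strand: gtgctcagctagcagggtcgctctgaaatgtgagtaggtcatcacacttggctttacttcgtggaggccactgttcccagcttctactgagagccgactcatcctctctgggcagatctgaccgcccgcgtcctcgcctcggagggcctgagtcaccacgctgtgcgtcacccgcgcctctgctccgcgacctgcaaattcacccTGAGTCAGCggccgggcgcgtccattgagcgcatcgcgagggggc
Txnrd1, chr10:82858956-82859205, + strand: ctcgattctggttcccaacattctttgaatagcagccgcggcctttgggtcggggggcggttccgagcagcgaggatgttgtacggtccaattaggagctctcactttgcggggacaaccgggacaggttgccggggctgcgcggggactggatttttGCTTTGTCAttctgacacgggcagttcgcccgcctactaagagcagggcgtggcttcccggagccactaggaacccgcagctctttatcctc
Mgst1, chr6:138140277-138140526, + strand: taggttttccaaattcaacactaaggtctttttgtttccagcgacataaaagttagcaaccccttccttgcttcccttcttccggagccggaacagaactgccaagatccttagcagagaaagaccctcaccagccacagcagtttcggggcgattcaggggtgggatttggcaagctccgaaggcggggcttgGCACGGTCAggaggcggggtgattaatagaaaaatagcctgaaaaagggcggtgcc
In Gclm, Txnrd1 and Mgst1 the core lies on the opposite strand, so that the capitals read as its reverse complement. On that strand the cores are TGACGGTGC in Gclm, TGACAAAGC in Txnrd1 and TGACCGTGC in Mgst1. Read along the strand shown, their capitals begin 134, 92 and 56 bases before the start. The Srxn1 capitals are TGAGTCAGC on the strand shown, 45 bases before the start. Srxn1 also has TGACCTAGC on the opposite strand, in letters that begin 28 bases after the start when read along the gene's strand. The searched windows of Nqo1, Txn1, Slc7a11 and Gstm1 held neither form, which says only that these letters are not there. Of several start sites, 1 of 3 in Txnrd1 and 1 of 2 in Mgst1 had the core.

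Across the 12 arrays, the 9 genes did not share one pattern, though KO MΦs had the lowest group mean in all but Gclc. Nqo1, Txnrd1 and Txn1 were called lower in KO MΦs than in WT MΦs, and Mgst1 and Gstm1 were high in both TAM groups. Slc7a11, Gclm and Srxn1 had single TAM arrays far from the others. All readings of the 9 genes lay above the highest background reading of 4.1, and the closest to it was Slc7a11 on WT TAM 1 at 4.57. The order of the group means differed by gene: WT TAM, WT MΦ, KO TAM, KO MΦ from high to low in Nqo1, Txnrd1, Txn1 and Srxn1, but KO TAM, WT TAM, WT MΦ, KO MΦ in Mgst1. It was WT TAM, WT MΦ, KO MΦ, KO TAM in Gclc, WT MΦ, WT TAM, KO TAM, KO MΦ in Gclm, WT MΦ, KO TAM, WT TAM, KO MΦ in Slc7a11 and WT TAM, KO TAM, WT MΦ, KO MΦ in Gstm1. Among neighbours in these orders, WT TAM and WT MΦ arrays overlapped in Nqo1, Txnrd1, Txn1, Gclc and Gclm, KO TAM and WT MΦ arrays in Srxn1 and Slc7a11, and KO TAM and WT TAM arrays in Mgst1, Gclm and Slc7a11. KO TAM and KO MΦ arrays overlapped in Gclm and Txnrd1, KO MΦ and WT TAM arrays in Slc7a11, and KO MΦ and WT MΦ arrays in Gstm1.

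**Figure D1:**
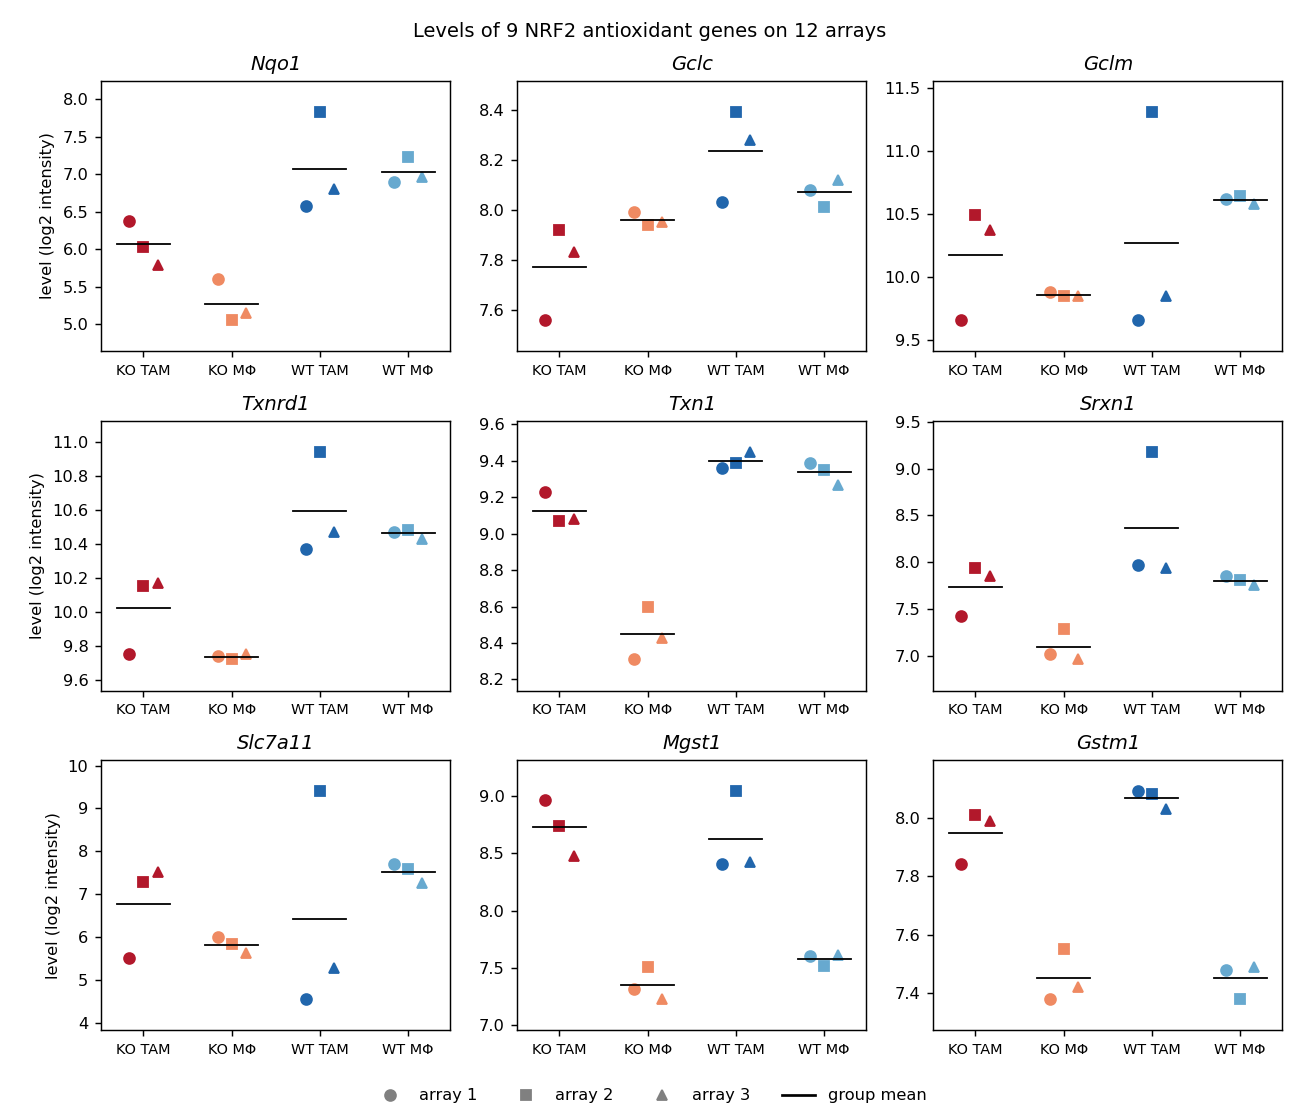
Log2 intensity (y axis) of the 9 measured genes on each of the 12 arrays, by group (x axis), with a marker for each array and a line at the group mean. Nqo1, Txnrd1 and Txn1 lie lower in KO MΦs than in WT MΦs, Mgst1 and Gstm1 lie higher in both TAM groups than in the MΦs of the same genotype, and WT TAM 2 lies far above WT TAM 1 and 3 for Slc7a11, Gclm, Srxn1 and Nqo1.

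Without myeloma cells, Nqo1, Txnrd1 and Txn1 fell in KO MΦs against WT MΦs. These 3 of 9 genes were called lower at an adjusted p under 0.05, against 6.13% of all genes called lower, 5.19% called higher and 11.3% called in either direction. All 9 means were lower in KO MΦs, with a median difference of -0.73 on the log2 scale, where the median over all genes was 0.04. In 8 of the 9 genes every KO MΦ array lay below every WT MΦ array, and the arrays of the groups did not overlap in 38.5% of all genes.

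Nqo1 encodes a quinone reductase that takes quinones to hydroquinones without a semiquinone step. It read 5.6, 5.06 and 5.15 on the KO MΦ arrays and 6.9, 7.23 and 6.96 on the WT MΦ arrays. The groups were more than 1 apart on the log2 scale at their nearest arrays. The difference was -1.76 ± 0.28 (SE), 3.39-fold lower in KO MΦs (limma adjusted p = 0.00208).

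Txn1 encodes cytosolic thioredoxin, which reduces protein disulfides, and Txnrd1 the selenoenzyme that returns it to the reduced form with NADPH. Txn1 read 8.31, 8.6 and 8.43 on KO MΦ arrays and 9.39, 9.35 and 9.27 on WT MΦ arrays. Txnrd1 read 9.74, 9.72 and 9.75 on KO MΦ arrays and 10.47, 10.48 and 10.43 on WT MΦ arrays. Neither gene had overlapping arrays, and for Txnrd1 the 3 arrays of each group lay close together. Txn1 fell by 0.89 ± 0.09 (adjusted p = 0.000225) and Txnrd1 fell by 0.73 ± 0.15 (adjusted p = 0.00774). These calls and that of Nqo1 held under every alternative run, with an adjusted p of at most 0.0333.

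Srxn1 encodes sulfiredoxin, which repairs overoxidised peroxiredoxins. Its levels were 7.02, 7.29 and 6.96 in KO MΦs and 7.85, 7.81 and 7.75 in WT MΦs. The arrays were apart, and the difference of -0.71 ± 0.27 did not pass the test over all 12 arrays (adjusted p = 0.119).

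Gclc and Gclm encode the catalytic and modifier subunits of glutamate-cysteine ligase, the rate-limiting enzyme of glutathione synthesis. Gclm read 9.88, 9.85 and 9.85 on KO MΦ arrays and 10.62, 10.64 and 10.58 on WT MΦ arrays. Gclc read 7.99, 7.94 and 7.95 on KO MΦ arrays and 8.08, 8.01 and 8.12 on WT MΦ arrays. The subunits thus stood at different distances, -0.75 ± 0.34 for Gclm (adjusted p = 0.201) and -0.11 ± 0.11 for Gclc (adjusted p = 0.601), and neither passed. Slc7a11 encodes xCT, the light chain of the transporter that brings in cystine for glutathione. It read 6.0, 5.84 and 5.65 in KO MΦs and 7.7, 7.6 and 7.27 in WT MΦs. The arrays were more than 1 apart, but the fit's standard error of 0.95, which the TAM arrays entered, was large beside the difference of -1.69 (adjusted p = 0.309).

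When only the MΦ arrays were fitted, Gclm (adjusted p = 0.000207), Srxn1 (0.00229) and Slc7a11 (0.00026) were called lower as well, giving 6 of 9 genes where 4716 of 22180 genes were called. The same 6 were called without WT TAM 2 and KO TAM 1 and with array weights. The detoxifying transferases did not pass: Mgst1, a microsomal glutathione transferase, differed by -0.22 (95% interval -0.59 to 0.14) and Gstm1, a cytosolic one, by -0.00 (-0.18 to 0.18). The sign of Gstm1 turned under other scalings (0.063 after a further quantile normalization, 0.020 after centring).

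Markers of fibroblasts and other stromal cells moved with genotype beside these genes. Of 14 listed, 13 were measured, and 7 fell and 0 rose in KO MΦs against WT MΦs. Their summed intensity was 553 to 562 in KO MΦs and 2188 to 2487 in WT MΦs. Lum, a defining marker, was at background on all arrays (2.86 to 3.38), while Col1a1 read 5.69 to 6.35 in KO MΦs and 8.54 to 8.64 in WT MΦs. Their part in the differences of Nqo1 and the other genes was not tested.

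In co-culture the genotype difference covered Nqo1, Gclc and Txnrd1. These 3 of 9 genes were lower in KO TAMs than in WT TAMs at an adjusted p under 0.05, where 7.19% of all genes were called lower, 5.03% higher and 12.2% in either direction. The median difference of the 9 genes was -0.27, against 0.02 over all genes. In 6 of the 9 genes, all with lower means in KO TAMs, the arrays did not overlap, against 24.6% of all genes.

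**Figure D2:**
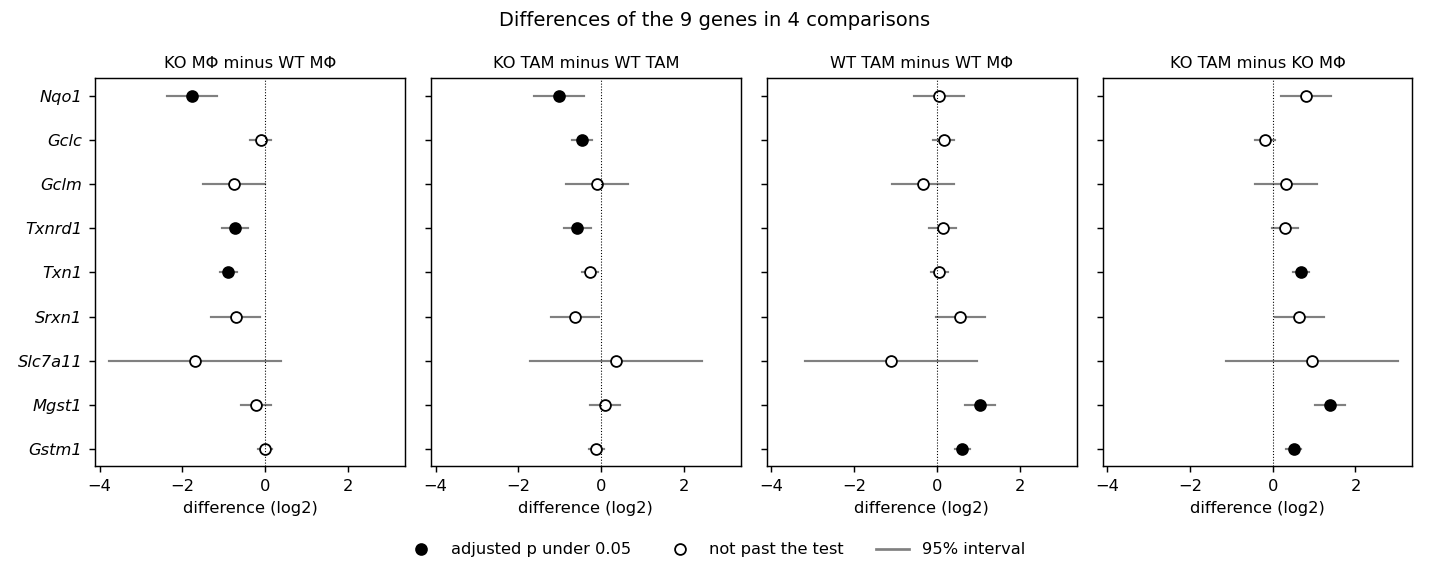
Difference in log2 level (x axis) of each of the 9 genes in 4 comparisons, with the 95% interval from the fit over 12 arrays; filled points have an adjusted p under 0.05. Nqo1 and Txnrd1 are called lower in KO cells both without and with co-culture, and Mgst1 and Gstm1 are called higher in TAMs of both genotypes.

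Nqo1 read 6.38, 6.03 and 5.79 in KO TAMs and 6.58, 7.83 and 6.81 in WT TAMs. No arrays overlapped, and WT TAM 2 was far above the others. The difference was -1.01 ± 0.28, 2.01-fold lower in KO TAMs (adjusted p = 0.0333). The call was lost without WT TAM 2 (-0.63, adjusted p = 0.0615), KO TAM 2 (0.0938) or KO TAM 3 (0.117), and with all 12 arrays after a further quantile normalization (0.061).

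Txnrd1 read 9.75, 10.15 and 10.17 in KO TAMs and 10.37, 10.94 and 10.47 in WT TAMs. Every KO TAM array was lower than every WT TAM array. Its difference of -0.57 ± 0.15 was called (adjusted p = 0.0242), and the call was lost without WT TAM 2 (0.0564) or KO TAM 1 (0.0566). Txn1, its substrate, read 9.23, 9.07 and 9.08 in KO TAMs and 9.36, 9.39 and 9.45 in WT TAMs. These arrays did not overlap either, and the difference of -0.27 ± 0.09 missed the threshold (adjusted p = 0.0804). It was called without KO TAM 1 (0.0415).

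Gclc read 7.56, 7.92 and 7.83 in KO TAMs and 8.03, 8.39 and 8.28 in WT TAMs. All KO TAM arrays were lower, and the difference was -0.46 ± 0.11 (adjusted p = 0.0198). The call was lost without WT TAM 2 (0.059), without WT TAM 3 (0.0642) and without both WT TAM 2 and KO TAM 1 (-0.28, adjusted p = 0.0771), and with all 12 arrays after a further quantile normalization (0.0595).

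Gclm read 9.66, 10.49 and 10.37 in KO TAMs and 9.66, 11.31 and 9.85 in WT TAMs. The groups overlapped fully, and the difference was -0.10 (95% interval -0.85 to 0.65). Without WT TAM 2 and KO TAM 1 it turned to 0.67, higher in KO TAMs (adjusted p = 0.000424).

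Slc7a11 varied most within the TAM groups. It read 5.52, 7.3 and 7.53 in KO TAMs and 4.57, 9.4 and 5.29 in WT TAMs. The distance of WT TAM 2 from the mean of WT TAM 1 and 3 was 4.47, and that of KO TAM 1 from the mean of KO TAM 2 and 3 was -1.89. Over all arrays the difference was 0.37 ± 0.95 (adjusted p = 0.866). It was 1.86 without WT TAM 2 (adjusted p = 0.0274) and 2.49 without both arrays (adjusted p = 4.97e-05), higher in KO TAMs.

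Srxn1 read 7.42, 7.94 and 7.85 in KO TAMs and 7.97, 9.18 and 7.94 in WT TAMs. The highest KO TAM and the lowest WT TAM array both read 7.94 after rounding without overlapping, and the difference of -0.63 ± 0.27 did not pass (adjusted p = 0.168). Mgst1 and Gstm1 did not pass the genotype test in co-culture either, with 0.11 (95% interval -0.26 to 0.47) and -0.11 (-0.29 to 0.07). With only the TAM arrays in the fit, 0 of the 9 genes were called, where 638 of 22180 genes were.

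The stromal markers again moved with genotype: 9 of 13 fell and 0 rose in KO TAMs against WT TAMs, with summed intensities of 849 to 2108 in KO TAMs and 3429 to 8333 in WT TAMs. KO TAM 1, 2 and 3 had 2108, 1567 and 849, while WT TAM 1, 2 and 3 had 3429, 8333 and 4024. WT TAM 2 was thus the array with the highest stromal sum as well as the highest level of Gclc, Gclm, Txnrd1, Srxn1, Slc7a11, Nqo1 and Mgst1 among the 12 arrays. Their part in these differences was not tested.

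Co-culture of wild-type cells went with higher levels of both glutathione transferases. Mgst1 and Gstm1 rose, 2 of the 9 genes, where 5.89% of all genes were called higher, 5.66% lower and 11.5% in either direction. The median difference of the 9 genes was 0.14, against 0.01 over all genes, and the arrays of 3 genes did not overlap, against 30.1% of all genes.

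Mgst1 sits in membranes and conjugates glutathione to electrophiles and lipid peroxides. It read 8.41, 9.04 and 8.42 in WT TAMs and 7.6, 7.52 and 7.61 in WT MΦs. Every WT TAM array was above every WT MΦ array, and the difference was 1.05 ± 0.17, 2.06-fold higher in WT TAMs (adjusted p = 0.00181). Gstm1 read 8.09, 8.08 and 8.03 in WT TAMs and 7.48, 7.38 and 7.49 in WT MΦs. Its difference was 0.61 ± 0.08, 1.53-fold higher in WT TAMs (adjusted p = 0.000681), and WT TAM 2 did not stand apart for it. Both calls held under every alternative run, with an adjusted p of at most 0.011.

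The other 7 genes did not pass over all arrays. Srxn1 was above every WT MΦ array on every WT TAM array, with a difference of 0.56 ± 0.27 (adjusted p = 0.235) that shrank to 0.15 without WT TAM 2. Nqo1 differed by 0.05 (95% interval -0.56 to 0.65), Txnrd1 by 0.14 (-0.18 to 0.45), Txn1 by 0.06 (-0.14 to 0.26) and Gclc by 0.16 (-0.08 to 0.41). Of these, Nqo1 turned to -0.33 and Txnrd1 to -0.04 without WT TAM 2.

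For Gclm and Slc7a11 the WT TAM arrays lay on both sides of the WT MΦ arrays, with WT TAM 1 and 3 below and WT TAM 2 above. Slc7a11 on WT TAM 1, 2 and 3 lay -2.96, 1.87 and -2.24 from the WT MΦ mean. Gclm lay -0.95, 0.70 and -0.76 from it. Over all arrays neither passed, at -1.11 ± 0.95 for Slc7a11 (adjusted p = 0.557) and -0.34 ± 0.34 for Gclm (adjusted p = 0.633). Without WT TAM 2 both were called lower in WT TAMs, Slc7a11 by -2.60 (adjusted p = 0.00534) and Gclm by -0.86 (adjusted p = 0.0159).

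WT TAM 2 was above both other WT TAM arrays in 7 of the 9 genes, against 36.7% of all genes. Its median distance from their mean was 0.62 over the 9 genes and -0.01 over all genes, and 4 of the 9 (Nqo1, Gclm, Srxn1 and Slc7a11) lay more than 1 away. KO TAM 1 was below both other KO TAM arrays in 6 of the 9 genes, against 37% of all genes, with a median distance of -0.32. The summed intensity of the 9 genes was 3490, 4509 and 4334 on KO TAM 1, 2 and 3 and 4034, 7786 and 4354 on WT TAM 1, 2 and 3.

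**Figure D3:**
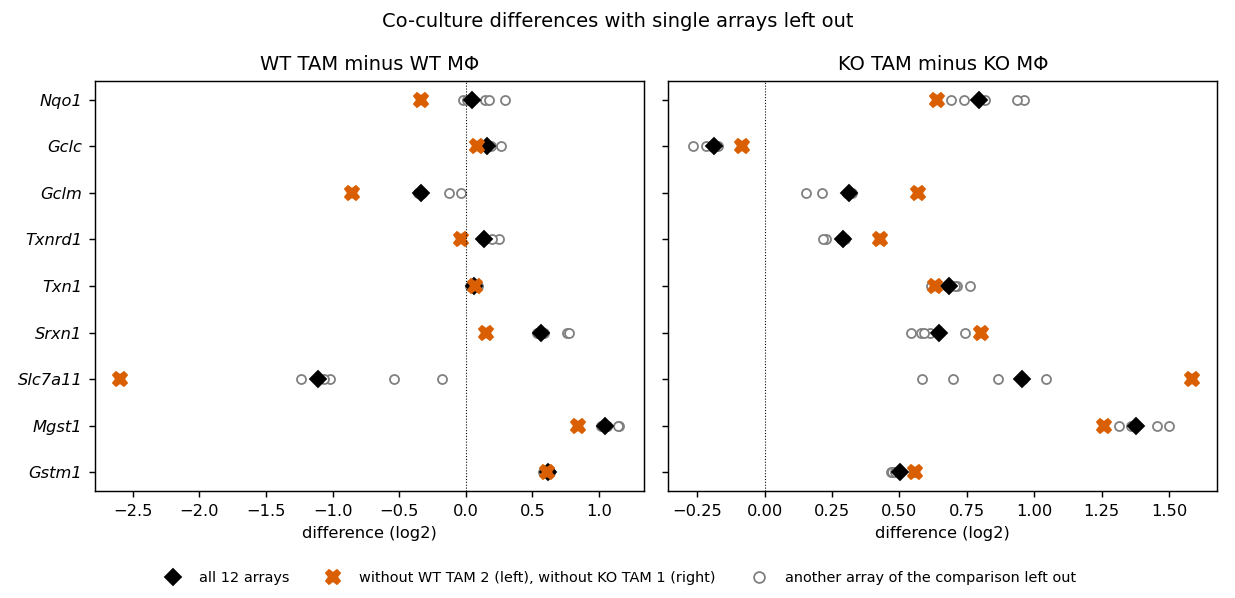
Co-culture difference in log2 level (x axis, separate scale in each panel) of the 9 genes with all 12 arrays (diamonds), without the array that stood apart (crosses: WT TAM 2 in the left panel, KO TAM 1 in the right) and without each other array of the comparison (open circles). Slc7a11 and Gclm move to -2.60 and -0.86 without WT TAM 2, while Mgst1 and Gstm1 stay positive throughout.

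In knockout cells co-culture went with higher Txn1, Mgst1 and Gstm1. These 3 of 9 genes rose, where 2.9% of all genes were called higher, 3.63% lower and 6.53% in either direction. The median difference was 0.65, against -0.01 over all genes. In 6 genes the arrays did not overlap, against 26.3% of all genes, and 5 of these 6 were higher in KO TAMs, the other being Gclc.

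Mgst1 averaged 8.73 ± 0.24 in KO TAMs and 7.35 ± 0.14 in KO MΦs (SD, n = 3 each). It rose by 1.38 ± 0.17, 2.6-fold (limma adjusted p = 0.000698), with KO TAM arrays at 8.96, 8.74 and 8.48 against 7.32, 7.51 and 7.23 in KO MΦs. Gstm1 rose by 0.50 ± 0.08 (adjusted p = 0.00429), with 7.84, 8.01 and 7.99 in KO TAMs against 7.38, 7.55 and 7.42 in KO MΦs. Both calls and that of Txn1 held under every alternative run, with an adjusted p of at most 0.0467. The transferases were thus higher in co-culture in both genotypes, by differences whose KO minus WT contrast did not pass (0.33, 95% interval -0.18 to 0.84, for Mgst1, and -0.11, -0.36 to 0.14, for Gstm1).

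Txn1 rose by 0.68 ± 0.09 (adjusted p = 0.00131), 1.61-fold. Its KO TAM arrays were 0.79, 0.63 and 0.64 above the KO MΦ mean, while the WT TAM arrays were 0.02, 0.06 and 0.11 above the WT MΦ mean. The difference between these responses was 0.62 ± 0.13, with an unadjusted p of 0.000416 and an adjusted p of 0.0888. It passed without KO TAM 1 (adjusted p = 0.0491), without both arrays that stood apart, with array weights and over the genes above the median level, and elsewhere the adjusted p was up to 0.243.

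Nqo1 was higher on every KO TAM array than on every KO MΦ array, by 0.80 ± 0.28 (adjusted p = 0.118). Srxn1 was likewise higher on each, by 0.65 ± 0.27 (adjusted p = 0.202). Gclc went the other way, -0.19 ± 0.11 (adjusted p = 0.401). None of the 3 passed. In Gclm and Slc7a11, KO TAM 1 lay below every KO MΦ array and KO TAM 2 and 3 above, and in Txnrd1 it lay among them. Slc7a11 on KO TAM 1, 2 and 3 lay -0.31, 1.47 and 1.70 from the KO MΦ mean, and Gclm -0.20, 0.62 and 0.51. Without WT TAM 2 and KO TAM 1, 8 of the 9 genes were called higher in KO TAMs, all but Gclc, where 2147 of 22180 genes were called. KO TAM 1 was below KO TAM 2 and 3 in 6 of the 9 genes, and leaving it out raised the KO TAM means of those genes. With KO TAM 1 alone left out, however, 3 of the 9 genes were called higher, as over all arrays. The raised means alone thus do not account for the 8 calls, which also needed WT TAM 2, an array outside this comparison, left out. For Nqo1, KO TAM 1 was the highest KO TAM array. Among the 8 called without both arrays were Slc7a11 (1.59, adjusted p = 0.00146), Gclm (0.57, 0.00207), Srxn1 (0.80, 0.00116) and Txnrd1 (0.43, 0.00397).

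Whether the co-culture response itself differed by genotype was asked with the KO minus WT contrast, which called 0 of the 9 genes with limma, where 0.194% of all genes (43) were called, 0.104% higher and 0.0902% lower. The lowest p-values among the 9 were those of Txn1, given above, and Gclc (-0.35 ± 0.16, limma unadjusted p = 0.0488, adjusted p = 0.516). Slc7a11 had the widest interval, 2.06 (95% interval -0.88 to 5.00). Without WT TAM 2 and KO TAM 1 the contrast called 6 of 9 genes, all higher, where 1496 genes were called. They were Slc7a11 (4.18), Gclm (1.42), Nqo1 (0.97), Srxn1 (0.65), Txn1 (0.57) and Txnrd1 (0.47). In that fit each TAM group held 2 arrays, and WT TAM 2 and KO TAM 1 were left out because they stood apart. WT TAM 2 was above both other arrays of its group in 7 of the 9 genes, and KO TAM 1 below both in 6 of the 9. Leaving out a high WT TAM array or a low KO TAM array raises the contrast by construction. Over all arrays the contrast was already positive for these 6 genes: Slc7a11 (2.06), Nqo1 (0.75), Gclm (0.65), Txn1 (0.62), Txnrd1 (0.16) and Srxn1 (0.08). Leaving out the pair thus changed the size of the contrast and the calls, not its direction. For Txn1 the contrast became smaller. For Srxn1 its sign turned when some other single arrays were left out.

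The stromal markers also moved with co-culture. In WT TAMs against WT MΦs 4 of 13 rose and 0 fell, and in KO TAMs against KO MΦs 3 rose and 0 fell, with the sums given above. The plasma and myeloma markers, 12 of 14 measured, had sums of 6536 to 8700 in KO TAMs, 7948 to 8149 in KO MΦs, 5494 to 5750 in WT TAMs and 6384 to 6829 in WT MΦs. Slamf7 had the highest level of the 12 on every array, MΦs included, so these sums cannot be read as an amount of myeloma cells. Of the 12, 0 rose and 3 fell in WT co-culture (Fcrl5, Cd79b and Xbp1), 0 rose and 1 fell in KO co-culture (Xbp1), 0 rose and 1 fell in KO MΦs against WT MΦs, and 2 rose and 0 fell in KO TAMs against WT TAMs (Cd79b and Slamf7). Fcrl5 read 5.41, 9.95 and 10.18 in KO TAMs, 10.69, 10.75 and 10.65 in KO MΦs, 4.64, 7.19 and 5.24 in WT TAMs and 10.22, 10.17 and 9.94 in WT MΦs. The named calls of Fcrl5, Cd79b, Xbp1 and Slamf7 were each lost on leaving out single arrays. The 1 that fell in KO MΦs against WT MΦs was Sdc1 (-1.19, limma adjusted p = 0.00726). Its call was kept with each single array left out (adjusted p at most 0.0351). The 8 macrophage markers had sums of 36300 to 38597 in KO TAMs, 29994 to 30283 in KO MΦs, 34044 to 34336 in WT TAMs and 33782 to 34878 in WT MΦs. What part these had in the levels of the antioxidant genes was not tested.

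Among the regulators of NRF2, Nfe2l2 itself rose in co-culture in both genotypes. It read 11.44, 11.32 and 11.52 in WT TAMs and 10.74, 10.85 and 10.74 in WT MΦs, and rose by 0.65 ± 0.11 (adjusted p = 0.00246). Nfe2l2 read 11.7, 11.31 and 11.29 in KO TAMs and 11.02, 10.95 and 10.99 in KO MΦs, and rose by 0.45 ± 0.11 (adjusted p = 0.0299), a call lost without KO TAM 1 or any 1 KO MΦ array (adjusted p up to 0.104). Between genotypes Nfe2l2 differed by 0.01 in TAMs and 0.21 in MΦs, and neither passed (adjusted p = 0.981 and 0.272), while Nqo1 and Txnrd1 were called in both comparisons.

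Of 10 listed regulators 9 were measured, and 1 rose and 1 fell in WT and in KO co-culture, 2 rose and 0 fell in KO MΦs, and 1 rose and 0 fell in KO TAMs against WT. Keap1, the sensor that holds NRF2, read between 7.16 and 7.62 on all arrays and was called in no comparison, with differences from 0.03 to 0.17. Cul3, the ligase scaffold, fell in co-culture by 0.33 in WT and in KO cells and rose by 0.29 in KO cells with and without co-culture, and each of these calls was lost on leaving out single arrays (adjusted p up to 0.106). Mafk, a small MAF partner, rose by 0.48 in KO MΦs, also lost on leaving out single arrays (up to 0.101). Bach1, the competitor, was at 0.35 in KO TAMs against WT TAMs (adjusted p = 0.0518). Sqstm1 encodes p62, which draws KEAP1 away from NRF2, and read 10.72, 11.74 and 10.9 in the WT TAMs. It passed in no comparison, nor did Mafg, Maff and Nfe2l1. The counts of the regulators and of the lists below stand beside the shares of all genes called higher and lower. These shares were 5.89% and 5.66% in WT co-culture and 2.9% and 3.63% in KO co-culture. Between genotypes they were 5.19% and 6.13% in KO MΦs and 5.03% and 7.19% in KO TAMs against WT. In the KO minus WT contrast they were 0.104% and 0.0902%.

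**Figure D4:**
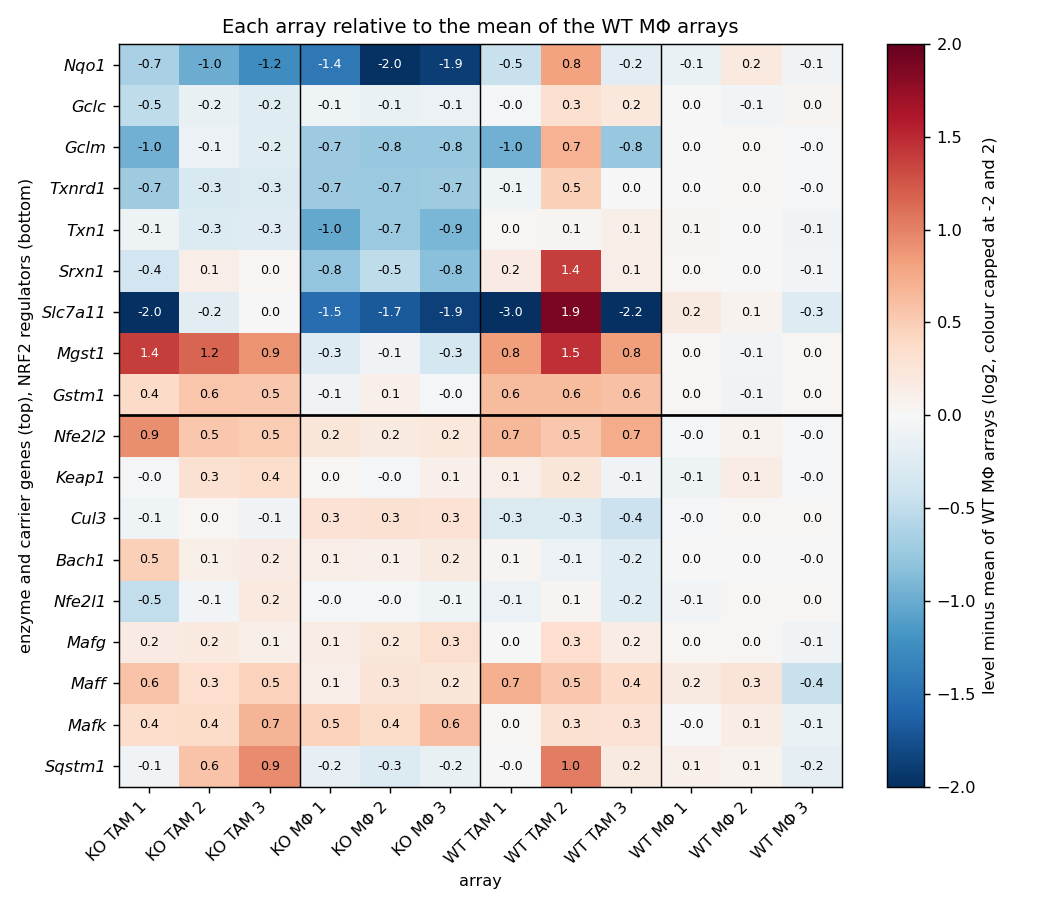
Level of each gene on each array minus the mean of the 3 WT MΦ arrays (log2, colour and printed value), with the 9 enzyme and carrier genes above the line and the 9 regulators below it. KO MΦ columns are low for Nqo1, Txn1, Txnrd1, Gclm, Srxn1 and Slc7a11, WT TAM 2 is high for most of the enzymes and for Sqstm1, and Nfe2l2 is high in all TAM columns.

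Other NRF2 targets were compared in the same way. Of 30 listed and 24 measured, 7 fell and 1 rose in KO MΦs against WT MΦs, with a median of -0.34, where 6.13% of all genes were called lower and 5.19% higher and their median was 0.04. In KO TAMs against WT TAMs 5 fell and 0 rose, with a median of -0.19, where 7.19% of all genes were called lower and 5.03% higher and their median was 0.02. Akr1b8, an aldo-keto reductase, fell by 2.14 ± 0.30 in KO MΦs (adjusted p = 0.00124) and fell by 1.48 ± 0.30 in KO TAMs (adjusted p = 0.00808). Me1, the cytosolic malic enzyme that makes NADPH, fell by 1.34 in KO MΦs (0.0061) and fell by 1.26 in KO TAMs (0.00775). The efflux pumps Abcc1 and Abcc4 fell by 0.83 and 0.82 in KO MΦs, and Ptgr1 and Ugdh fell by 0.83 and 0.45 in KO TAMs.

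In co-culture of wild-type cells these targets went both ways, with 5 higher and 4 lower and a median of -0.02. Hmox1, which opens the haem ring, rose by 0.82 (adjusted p = 0.00922) and Ptgr1, a prostaglandin reductase, rose by 0.91 (0.0012). Abcc4 fell by 1.11 and Blvrb, a biliverdin reductase, fell by 0.99. In KO cells 5 rose and 1 fell, with a median of 0.06, among them Hmox1 at 0.90 (adjusted p = 0.0104) and the haem transporter Slc48a1 at 0.80 (0.000622). Hmox1 read 10.91, 11.14 and 11.13 in KO TAMs, 10.22, 10.2 and 10.08 in KO MΦs, 11.25, 12 and 11.22 in WT TAMs and 10.75, 10.68 and 10.59 in WT MΦs. It was higher on every TAM array than on every MΦ array of its genotype, which in wild-type cells Nqo1 was not.

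Glutathione metabolism beyond the ligase had 23 measured genes. In co-culture 7 rose and 1 fell in WT cells and 3 rose and 1 fell in KO cells, and 0 rose and 5 fell in KO MΦs and 0 rose and 3 fell in KO TAMs against WT. Gpx3, the secreted glutathione peroxidase, rose by 0.97 in WT and by 1.32 in KO co-culture. Gpx8, a peroxidase of the endoplasmic reticulum, fell by 1.72 in KO MΦs and fell by 1.96 in KO TAMs against WT. Slc3a2 encodes the heavy chain that pairs with xCT and with other light chains. It fell by 0.55 in KO MΦs (adjusted p = 0.0029) and rose by 0.65 in KO co-culture (adjusted p = 0.00198), while Slc7a11 passed in neither.

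Among 19 measured genes of the thioredoxin and peroxiredoxin system, 2 rose and 2 fell in WT co-culture, and 2 rose and 1 fell in KO co-culture. In KO MΦs 0 rose and 3 fell, and in KO TAMs 1 rose and 3 fell against WT. The 3 that fell were Msrb3, a methionine sulfoxide reductase (-1.68 in MΦs, -1.56 in TAMs), Prdx4, the peroxiredoxin of the endoplasmic reticulum (-0.82, -0.73), and Txndc5, a disulfide isomerase (-0.48, -0.61). Txndc12 rose in both co-cultures, by 0.59 in KO and by 0.44 in WT cells.

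Of 20 measured glutathione transferases and relatives, 3 rose and 0 fell in WT co-culture, 1 rose and 2 fell in KO co-culture, 0 were called in KO MΦs against WT MΦs, and 0 rose and 4 fell in KO TAMs. Mgst3 rose by 1.12 in WT TAMs against WT MΦs (adjusted p = 0.0033) and fell by 1.19 in KO TAMs against WT TAMs (0.00247), and Ltc4s, leukotriene C4 synthase, rose by 0.60 and fell by 0.69. The other 16 of the 20 did not pass between KO TAMs and WT TAMs, nor did Mgst1 (0.11).

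Among 15 measured enzymes that make or remove superoxide and hydrogen peroxide, 1 rose and 5 fell in WT co-culture and 2 rose and 1 fell in KO co-culture, and 0 rose and 5 fell in KO MΦs and 0 rose and 1 fell in KO TAMs against WT. Xdh, xanthine dehydrogenase, rose by 1.86 in KO and by 1.33 in WT co-culture, and Nox1, an NADPH oxidase, fell by 1.58 in KO and fell by 2.24 in WT co-culture. Sod2, the mitochondrial superoxide dismutase, fell by 0.60 in KO MΦs.

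Slc7a11 is also known as a target of ATF4, the factor of the integrated stress response. Of 22 measured ATF4 targets, 2 rose and 5 fell in WT co-culture, 1 rose and 3 fell in KO co-culture, 1 rose and 5 fell in KO MΦs and 0 rose and 4 fell in KO TAMs against WT. Psat1, of serine synthesis, fell by 1.52 in KO MΦs and fell by 1.32 in KO TAMs, and Aldh18a1, of proline synthesis, fell by 1.22 and by 1.08 on the log2 scale. The KO minus WT contrast called 1 of the 22, Ddit4 (-1.49, adjusted p = 0.0414), a call lost on leaving out single arrays.

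**Figure D5:**
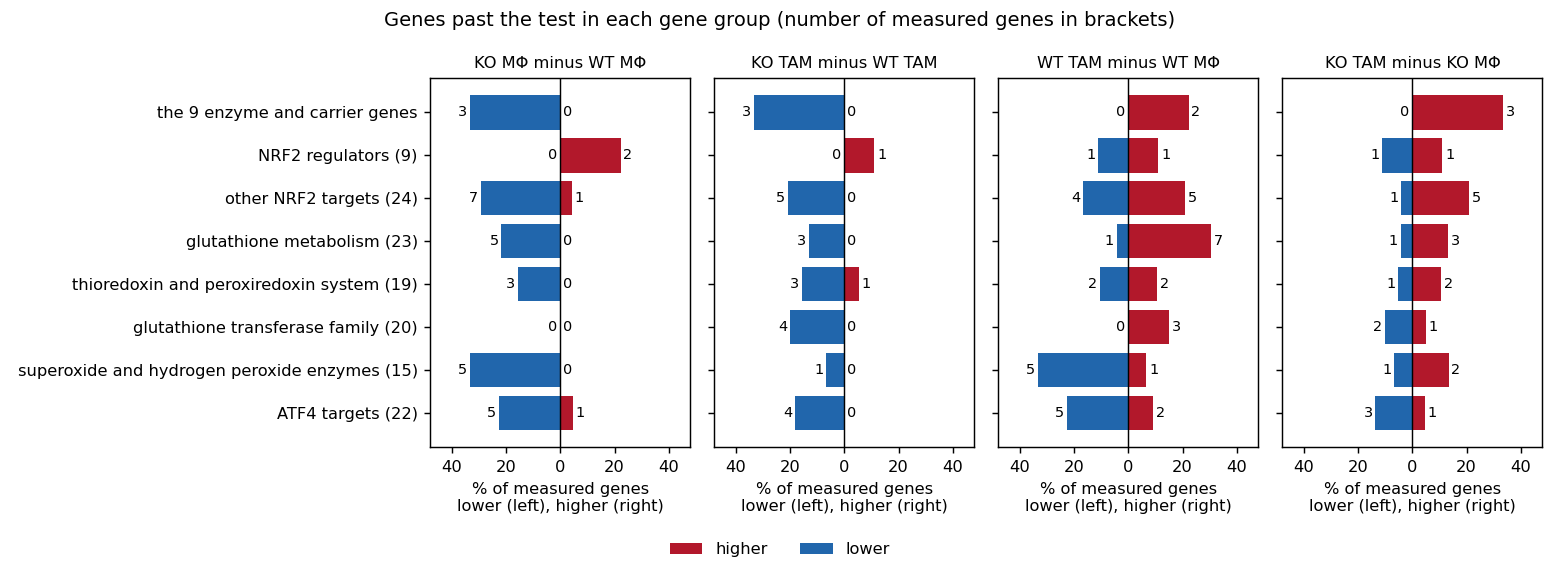
Share of the measured genes of each group called higher (right, red) or lower (left, blue) at an adjusted p under 0.05 in 4 comparisons, with the number of genes at each bar. Called genes are mostly lower in both genotype panels, and in KO TAMs against KO MΦs 3 of the 9 enzyme and carrier genes are higher and 0 lower.

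The genes most like each member were ranked by Pearson's r over the 12 arrays, as a description; the arrays share groups and culture. Nqo1 was most like Ltbp2 (0.98), Fgf7 (0.98) and Gja1 (0.98). Txnrd1 was most like Coq3 (0.97), Pgd (0.97) and Alas1 (0.97), and Txn1 like Gmppa (0.97), Gnb4 (0.96) and Fkbp1b (0.96). Pgd, of the pentose phosphate pathway, also stood in the list of other NRF2 targets. Gclm and Slc7a11 had the same pair of genes at the top, Lcn2 (0.95 and 0.97) and Procr (0.95 and 0.90), and were like each other (0.97). Gclc was most like Cdca7l (0.94), Pla2g4a (0.92) and Ddias (0.91), and Srxn1 like Matn2, Id3 and Creb3l1 (0.95 each). Mgst1 was most like Slc40a1 (0.98), the iron exporter, Vcam1 (0.98) and Fam234a (0.97), and Gstm1 like Vat1 (0.97), Clptm1 (0.96) and Mfsd12 (0.96). Between members, Mgst1 and Gstm1 reached 0.91 and Nqo1 and Txnrd1 0.90, and Gclc and Mgst1 were the least alike (-0.03).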

How the data were processed

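Gene expression was measured in 12 samples of mouse primary macrophages, grouped by their titles. The authors deposited 1 table of intensity values, made with RMA per the submitters' processing notes, which also name limma. RMA equalises overall brightness between arrays. The values are on a linear scale (lowest 3.57) and log2 was taken with no pseudocount. Of 41345 probe sets, 23521 had 1 gene symbol in the array's annotation and were used, 1814 had several and 16010 none. The probe set with the highest mean stood for each of 1082 genes that had more than 1.

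Differences came from limma 3.58.1 in R 4.3.3 (lmFit, eBayes) on 4 group means with 8 residual degrees of freedom, with Benjamini-Hochberg adjustment over 22180 genes and calls at an adjusted p under 0.05. No filter on level was applied. The script was tested on simulated data. Values after ± are standard errors unless marked SD. The labels do not say whether replicates are separate animals or cultures, so p-values reflect no more than the spread between these samples, possibly a technical one, and the number of arrays limits the precision.

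The members and gene lists (NRF2 regulators, other NRF2 targets, glutathione metabolism, thioredoxin and peroxiredoxin system, glutathione transferases, superoxide and hydrogen peroxide enzymes, ATF4 targets, and markers of macrophages, plasma cells and stroma) were chosen with earlier results of these data known. Named genes were all members and regulators, Cd36, up to 4 called genes with the largest difference per list and comparison, and the 3 genes most like each member. Of the named list genes, mainly those that kept their call with each array left out are printed, a choice made after the values were seen. Marker, X-linked and Y-linked genes were named after their values were seen.

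Alternatives were a further quantile normalization, median centring, the mean of all probe sets, only genes above the median level, array weights, only the 2 groups compared, a replicate block, each array left out, and WT TAM 2 and KO TAM 1 left out together.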

Additional observations from a re-analysis of the deposited data

How the results depend on the processing

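Over the members, the 8 alternatives other than single arrays left 303 values and counts on the same side, strengthened 33, weakened 6 and reversed 9, and leaving out single arrays gave 294, 6, 7 and 17. The genes called in the order KO MΦ against WT MΦ, KO TAM against WT TAM, WT TAM against WT MΦ, KO TAM against KO MΦ and KO minus WT contrast were 2512, 2710, 2561, 1449 and 43. With array weights they were 4923, 4725, 3976, 2705 and 761, and without WT TAM 2 and KO TAM 1 they were 4558, 4480, 4049, 2147 and 1496. With only the groups compared, they were 4716 in KO MΦs and 638 in KO TAMs against WT, and 505 in KO co-culture. The contrast called 100 among genes above the median level. With single arrays left out the ranges were 1403 to 1503, 1749 to 3710, 1475 to 2671, 611 to 1659 and 14 to 444. Members called were 3, 3, 2, 3 and 0. Array weights gave 6 in KO MΦs, 6 in KO TAMs against KO MΦs and 2 in the contrast, the 2 groups alone gave 6 in KO MΦs and 0 in KO TAMs against WT TAMs, the pair left out gave 6, 4, 4, 8 and 6, and genes above the median level gave 1 in the contrast. Single arrays left out gave 1 to 3 in KO TAMs against WT TAMs, 2 to 4 in WT co-culture and 0 to 1 in the contrast.

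Directions turned for Nqo1 in WT co-culture (-0.007 after quantile normalization, -0.21 with array weights, -0.33 without the pair, -0.33 to 0.29 without single arrays) and Txnrd1 (-0.0366 without the pair, -0.0366 to 0.25 without single arrays). In KO MΦs against WT MΦs Gstm1 gave 0.063 after quantile normalization, 0.020 after centring and 0.0036 with array weights, and -0.054 to 0.033 without single arrays. In KO TAMs against WT TAMs Gclm gave 0.45 with array weights and 0.67 without the pair, and -0.41 to 0.42 without single arrays, Slc7a11 gave -0.56 to 1.86 and Mgst1 -0.0111 to 0.31. The contrast of Srxn1 gave -0.13 to 0.49. Deviations from the group means of same-numbered WT TAM and KO TAM arrays correlated at 0.27, 0.25 and 0.03 for replicates 1, 2 and 3. For the other pairs of groups the correlations were -0.06 to 0.02. Differently numbered arrays were not compared, so whether replicate numbers pair the TAM samples is not settled. A replicate block moved the contrast to 26 genes and no member's call. The share of called genes that were higher in KO TAMs against WT TAMs was 41.2%, and 50.6% after quantile normalization. The causes were not tested, except that the 2-group and left-out fits hold fewer samples.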
